A study of Mus musculus with 6 samples.

Results

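The transcripts of 10 enzymes and subunits that write, read or remove the Polycomb mark on histone H3 and methyl groups on DNA were followed in mouse CD8+ T cells, the killer lymphocytes that recognise infected and malignant cells. The genes were Ezh2, Suz12, Eed, Dnmt1, Uhrf1, Dnmt3a, Dnmt3b, Tet1, Tet2 and Tet3, taken by their symbols, and all 10 were among the 24589 genes of the table. The cells were primary T cells of wild-type genotype, isolated with magnetic beads from C57BL/6 spleens and peripheral lymph nodes and activated with antibodies to CD3 and CD28. One group then received 20 µM TVA (trans-vaccenic acid, a long-chain fatty acid of ruminant milk and meat) for 24 h, and the control group received the solvent DMSO for the same time. Bulk mRNA was sequenced in 3 libraries of each group, 6 in all. Both groups had been activated, so the comparison holds no unstimulated sample. Nothing in the labels says whether the 3 libraries of a group came from separate animals or cultures, and the p-values below measure only the spread between these libraries, which may be technical.

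Polycomb repressive complex 2 (PRC2) places methyl groups on lysine 27 of histone H3, a mark of silenced genes. Ezh2 is its catalytic subunit, and Suz12 and Eed are the partners without which Ezh2 is inactive, with Eed also binding the finished mark. DNA methylation is copied onto the new strand after replication by Dnmt1, which Uhrf1 recruits to hemimethylated CpG sites. Dnmt3a and Dnmt3b methylate sites that had none, and the dioxygenases Tet1, Tet2 and Tet3 oxidise methylcytosine as the first step of its removal. In CD8+ T cells, Ezh2 and Dnmt3a are known for silencing genes during effector differentiation, Tet2 for its part in the choice between effector and memory fates, and Uhrf1 and Dnmt1 for being raised in dividing cells.

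After 24 h with TVA the levels of these enzymes were close to those with DMSO. Of the 10 genes, 9 passed the filter on low values (at least 1 TPM, a transcript abundance scaled for length and to a common total, in at least 3 libraries), each of them above 1 TPM in all 6 libraries, and Tet1 did not. With limma, 0 of the 9 had an adjusted p under 0.05, while 8.51% of the 10866 genes tested did (5.28% with higher and 3.23% with lower values under TVA). The unadjusted p was under 0.05 for 1 of the 9, Suz12, beside 31.8% of all genes tested. The DMSO and TVA values did not overlap for 3 of the 9, Ezh2 and Suz12 (higher with TVA) and Tet2 (lower with TVA), beside 38.6% of all genes tested. Their median log2 change was 0.035, close to the 0.039 of all genes tested, and their median absolute log2 change was 0.060 against 0.095. In bulk RNA a smaller share of cells of a type and less RNA per cell cannot be told apart, and this holds for every level below.

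**Figure D1:**
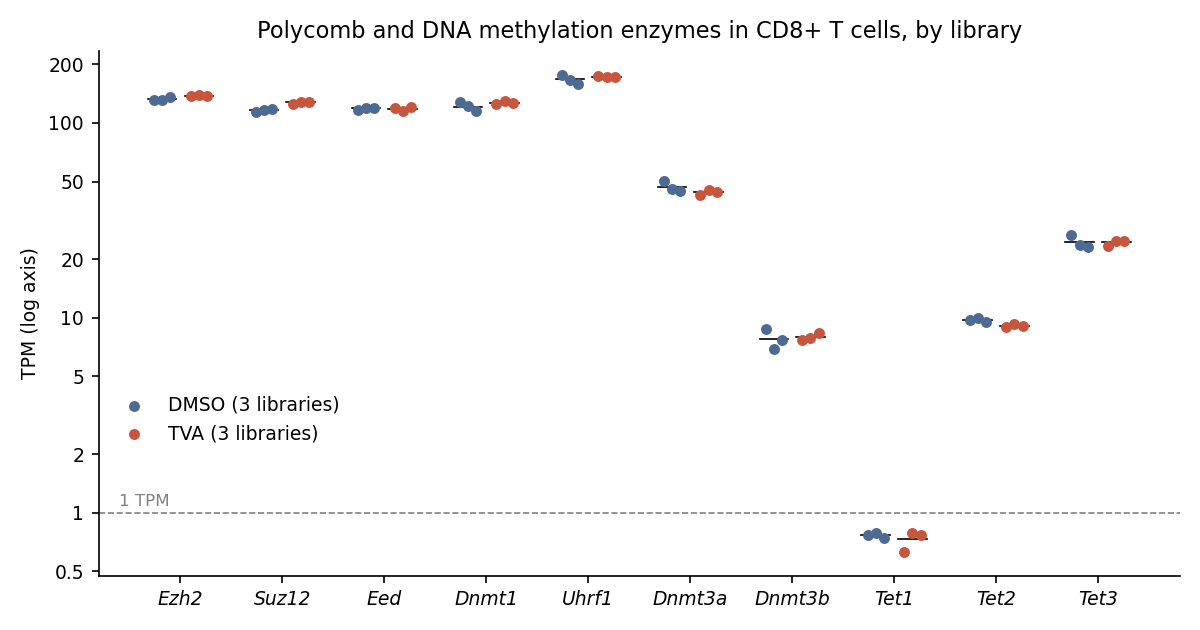
TPM of the 10 genes (log axis) in each of the 3 DMSO and 3 TVA libraries; each point is a library, the short lines are group means and the dashed line marks 1 TPM. Levels span from Uhrf1 at 158.81 to 177.03 TPM down to Tet1 at 0.63 to 0.79 TPM, and the colours lie at nearly the same height for every gene.

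The libraries differed in a way that touches these genes. DMSO replicate 2 correlated more closely with the TVA libraries (Pearson r 0.996 across genes, which are not independent replicates) than with DMSO replicate 1 (0.993), and the difference between DMSO replicates 1 and 3 followed the GC content of transcripts (Spearman rho 0.62 over 10588 genes). All 7 markers of CD8+ T cells were at 1 TPM or more in every library and summed to 2108 to 2296 TPM with DMSO and 2391 to 2433 TPM with TVA. Cd8a, Cd3d, Cd3e and Cd3g were higher in every TVA library than in any DMSO library. Cd8b1, Cd2 and Thy1 overlapped between the groups. Of the 3 CD4 T cell markers Foxp3 stayed under 1 TPM (sum 9.28 to 10.1 TPM with DMSO against 7.55 to 8.31 TPM with TVA), and the 3 NK cell markers summed to 2.11 to 2.82 against 2.44 to 3.29 TPM. The 4 red cell markers summed to 11.6 to 25.02 against 7.33 to 20.5 TPM. The 6 myeloid markers summed to 40.7 to 44.4 TPM with DMSO and 54.2 to 55.8 TPM with TVA, most of it Lyz2, with Adgre1 under 1 TPM throughout. Among the lists given here, the myeloid, CD4 and CD8 sums did not overlap between the groups, and their part in the changes below was not tested.

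Expression of several of these genes is known to follow the cell cycle through E2F factors, and promoter windows are shown for the E2F octamers they hold. The search covered the RefSeq windows of GRCm38.p6, from 250 bases before to 50 after each annotated start, which all 10 genes have (15 windows). An octamer was TTTCCCGC, TTTGGCGC, TTTCGCGC or TTTGCCGC on either strand, and 2.26% of all 32851 windows hold at least 1. Windows of Ezh2, Suz12, Dnmt1 and Uhrf1 hold at least 1, which is 4 of the 15 windows, and none of the windows of Eed, Dnmt3a, Dnmt3b, Tet1, Tet2 or Tet3 does. Those 4 windows hold 31, 41, 33 and 33 CpG, against a median of 7 over all windows, and each octamer contains a CpG. The share of all windows is thus not a like background, and a share among windows of similar CpG content was not computed. The 4 windows are printed 5′ to 3′ on the strand of the gene, over their first 280 bases with the octamer in capitals, for Ezh2 at chr6:47595001-47595280 (minus strand), Suz12 at chr11:79992856-79993135 (plus strand), Dnmt1 at chr9:20952594-20952873 (minus strand, the third of 3 annotated starts) and Uhrf1 at chr17:56304063-56304342 (plus strand, the second of 2 annotated starts):
Ezh2: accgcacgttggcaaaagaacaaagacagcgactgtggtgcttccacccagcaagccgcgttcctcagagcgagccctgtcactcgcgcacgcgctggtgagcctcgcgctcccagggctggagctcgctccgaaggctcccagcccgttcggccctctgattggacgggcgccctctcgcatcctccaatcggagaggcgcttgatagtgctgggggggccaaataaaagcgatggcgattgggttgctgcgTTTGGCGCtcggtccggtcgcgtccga
Suz12: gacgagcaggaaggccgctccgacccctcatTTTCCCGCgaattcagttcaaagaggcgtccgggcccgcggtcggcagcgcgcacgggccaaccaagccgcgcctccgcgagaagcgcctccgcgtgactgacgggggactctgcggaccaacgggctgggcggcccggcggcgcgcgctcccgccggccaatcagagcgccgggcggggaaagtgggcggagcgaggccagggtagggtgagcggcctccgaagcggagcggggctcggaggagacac
Dnmt1: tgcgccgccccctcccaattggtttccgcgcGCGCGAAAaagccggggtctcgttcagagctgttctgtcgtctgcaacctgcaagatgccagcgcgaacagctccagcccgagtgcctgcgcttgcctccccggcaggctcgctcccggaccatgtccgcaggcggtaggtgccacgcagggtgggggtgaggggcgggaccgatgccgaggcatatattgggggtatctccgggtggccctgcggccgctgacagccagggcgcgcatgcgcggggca
Uhrf1: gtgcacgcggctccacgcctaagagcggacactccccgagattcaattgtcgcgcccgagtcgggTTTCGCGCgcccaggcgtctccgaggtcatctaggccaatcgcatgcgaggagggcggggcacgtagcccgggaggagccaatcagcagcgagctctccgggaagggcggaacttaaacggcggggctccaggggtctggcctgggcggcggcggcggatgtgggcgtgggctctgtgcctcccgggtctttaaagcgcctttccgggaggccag

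In the Ezh2 window the octamer lies at bases 254 to 261, just after the start, and in the Suz12 window at bases 32 to 39. In the Dnmt1 window it lies at bases 32 to 39 on the opposite strand, and a further octamer follows at bases 284 to 291, past the printed stretch. In the Uhrf1 window it lies at bases 66 to 73. The full cAMP response element TGACGTCA was in 1.79% of all windows and in 0 of the 15 windows of these genes. Its shorter form TGACG, which the longer motif contains, was in 20.8% of all windows and in those of Suz12 and Tet2, and CCAAT was in 37.4% of all windows and in 8 of the 15, of 6 genes. No octamer overlapped a CCAAT or TGACG match. A match is a description of the sequence and says nothing of binding in these cells.

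Of the PRC2 core, Suz12 was the gene nearest to the threshold. Suz12 (chr11:79993106-80034123, plus strand), which holds the complex together, measured 114.27, 117.17 and 118.13 TPM in the DMSO libraries and 125.5, 128.23 and 128.6 TPM in the TVA libraries (here and below in the order of replicates 1, 2 and 3). Each TVA library lay above each DMSO library. The group means were 116.5 ± 2.01 and 127.4 ± 1.69 TPM (SD, n = 3 each), which is a difference of 0.13 on the log2 scale (SE 0.034) with a limma adjusted p of 0.0577 and a 95% interval from 3.44% to 15.5% higher. Without DMSO replicate 2 the adjusted p was 0.0477, the only one under the threshold among the alternatives run, which ranged from 0.0477 to 0.529. Transcripts of Suz12 have a GC content of 39.2%, the lowest of the 10, and with a correction for GC content the log2 change was 0.029 (limma adjusted p 0.529).

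Ezh2 (chr6:47530139-47595341, minus strand), the methyltransferase itself, had 130.6, 131.43 and 135.51 TPM in the DMSO libraries and 137.43, 139.42 and 137.65 TPM in the TVA libraries. The groups did not overlap, but DMSO replicate 3 came close to the lowest TVA library. The means of 132.5 ± 2.63 and 138.2 ± 1.09 TPM differed by 0.060 on the log2 scale (SE 0.034, limma adjusted p 0.258), with a 95% interval from -1.31% to 10.1%, and the GC correction turned the sign (-0.010, adjusted p 0.830). Eed (chr7:89954654-89980983, minus strand), which binds the mark and activates the complex, had 117.05, 119.64 and 119.21 TPM in the DMSO libraries and 119.4, 115.68 and 120.51 TPM in the TVA libraries. Its highest and its lowest library were both TVA libraries, so the groups overlapped throughout. On the log2 scale the change was -0.0014 (SE 0.035, limma adjusted p 0.981), and the 95% interval ran from -5.55% to 5.67%.

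The 3 core subunits stood at nearly the same level per transcript length, between 114.27 and 139.42 TPM over all 6 libraries, among the top of the genes tested (percentiles 88.7 to 90.1 by mean TPM). Within a library, the log2 ratio of Ezh2 to Suz12 was 0.18 ± 0.017 with DMSO and 0.12 ± 0.017 with TVA, without overlap. The log2 ratio of Ezh2 to Eed was 0.16 ± 0.024 with DMSO and 0.22 ± 0.042 with TVA, also without overlap. Each of these had an exact two-sided permutation p of 0.10, the smallest that 3 against 3 libraries can give, and 0.15 after Benjamini-Hochberg adjustment over the 6 ratios computed, so the design could not have placed them past 0.05. Both differences, -0.07 and 0.06 on the log2 scale, kept their sign with the GC correction (-0.04 and 0.06), and that of Ezh2 to Eed was 0.038 without TVA replicate 2.

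Ezh1, the alternative catalytic subunit that predominates in resting cells, was far lower than Ezh2. It had 15.94, 16.49 and 14.19 TPM in the DMSO libraries and 18.23, 17.7 and 17.39 TPM in the TVA libraries, and every TVA library lay above every DMSO library. The difference was 0.19 on the log2 scale (SE 0.061, limma adjusted p 0.0903; 0.0401 without DMSO replicate 2, and 0.0401 to 0.236 over the alternatives). Ezh2 made up 89.5% ± 0.896 of the summed TPM of Ezh1 and Ezh2 with DMSO and 88.6% ± 0.273 with TVA (SD, n = 3). The log2 ratio of Ezh2 to Ezh1 was 3.02 ± 0.13 with DMSO and 2.89 ± 0.037 with TVA (difference -0.13, exact permutation p 0.10, adjusted 0.15), and without DMSO replicate 3 the difference was -0.049 (exact permutation p 0.20).

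Neither gene of the maintenance pair passed the test, and the values of both overlapped between the groups. Dnmt1 (chr9:20907209-20959888, minus strand), which copies methylation at replication forks, had 127.36, 121.72 and 115.07 TPM in the DMSO libraries and 124.63, 129.16 and 127.28 TPM in the TVA libraries. DMSO replicate 3 was the lowest library and DMSO replicate 1 lay within the TVA range. The fitted difference was 0.07 on the log2 scale (SE 0.045, limma adjusted p 0.341), with a 95% interval from -2.64% to 12.6%, and it was 0.028 without DMSO replicate 3 and 0.10 without DMSO replicate 1. Uhrf1 (chr17:56303321-56323486, plus strand), which recognises hemimethylated DNA and brings Dnmt1 to it, had 177.03, 165.9 and 158.81 TPM in the DMSO libraries and 174.04, 171.8 and 172.4 TPM in the TVA libraries. The TVA libraries lay inside the DMSO range. Its log2 change was 0.05 (SE 0.045, limma adjusted p 0.491), with a 95% interval from -3.92% to 11.2%, and it was 0.011 without DMSO replicate 3 and 0.089 without DMSO replicate 1. For both genes the lowest value was DMSO replicate 3, and their log2 ratio was -0.46 ± 0.014 with DMSO and -0.44 ± 0.035 with TVA (exact permutation p 0.50, adjusted 0.50). Of the 36 pairs among the 9 genes, Dnmt1 and Uhrf1 had the most similar profile over the 6 libraries, with a root-mean-square difference of 0.024 on the centred log2(TPM + 1) scale; both have transcripts of 53.5% to 54.0% GC.

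Of the de novo methyltransferases, Dnmt3a was the more abundant and Dnmt3b was low. Dnmt3a (chr12:3806007-3914443, plus strand) had 50.4, 45.79 and 44.63 TPM in the DMSO libraries and 42.87, 45.51 and 44.09 TPM in the TVA libraries. DMSO replicate 1 stood above the other 5 libraries, and the remaining DMSO values fell within or next to the TVA range. Its log2 change was -0.08 (SE 0.054, limma adjusted p 0.307), with a 95% interval from -13.5% to 2.80%, and it was -0.034 without DMSO replicate 1 and -0.056 with the GC correction. Dnmt3b (chr2:153649450-153687730, plus strand) had 8.73, 6.93 and 7.68 TPM in the DMSO libraries and 7.7, 7.88 and 8.32 TPM in the TVA libraries. Its highest and its lowest values were both DMSO libraries. Its fitted log2 change was 0.035 (SE 0.079, the largest of the 9, limma adjusted p 0.782), and its sign turned without DMSO replicate 2 (-0.036).

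Like the ratios of Ezh2 to Suz12, Eed and Ezh1, the ratio of Dnmt3a to Dnmt1 did not overlap between the groups. Neither Dnmt3a nor Dnmt1 passed the test alone. The share of all gene pairs without overlap was not computed (38.6% of single genes tested did not overlap). The log2 ratio of Dnmt3a to Dnmt1 was -1.32, -1.39 and -1.35 in the DMSO libraries and -1.52, -1.48 and -1.51 in the TVA libraries. The groups did not overlap, with means of -1.35 ± 0.036 and -1.50 ± 0.017 (difference -0.15, exact permutation p 0.10, the smallest possible, adjusted 0.15). With the GC correction the difference was -0.13, and it ranged from -0.17 to -0.13 when a library was left out. Dnmt1 made up 68.9% ± 0.761 of the summed TPM of Dnmt1, Dnmt3a and Dnmt3b with DMSO and 70.9% ± 0.202 with TVA. Dnmt3a made up 85.8% ± 0.912 of the TPM of Dnmt3a and Dnmt3b with DMSO and 84.7% ± 0.560 with TVA.

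Among the TET dioxygenases, Tet3 was the most abundant, Tet2 followed and Tet1 was near the floor of the table. Tet2 (chr3:133463679-133545139, minus strand) had 9.73, 9.95 and 9.55 TPM in the DMSO libraries and 8.92, 9.3 and 9.07 TPM in the TVA libraries. Every TVA library lay below every DMSO library. The log2 change was -0.09 (SE 0.047, limma adjusted p 0.224), with a 95% interval from -12.8% to 1.29% on the log2(TPM + 1) scale, which understates changes at this level. With the GC correction it was -0.15 (limma adjusted p 0.0479), the only alternative past the threshold, and over all alternatives the adjusted p ran from 0.0479 to 0.433.

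Tet3 (chr6:83362373-83459084, minus strand) had 26.59, 23.78 and 23.2 TPM in the DMSO libraries and 23.38, 24.85 and 24.91 TPM in the TVA libraries. The TVA values lay within the DMSO range. The log2 change was -0.0063 (SE 0.059, limma adjusted p 0.951), with a 95% interval from -9.53% to 9.56%, and it was 0.10 with the GC correction (adjusted p 0.160). Tet1 (chr10:62804570-62908996, minus strand) had 0.77, 0.79 and 0.74 TPM in the DMSO libraries and 0.63, 0.79 and 0.77 TPM in the TVA libraries, under 1 TPM in every library, and was not tested with the others. In the fit over all genes above 0 TPM its log2 change was -0.03 (SE 0.047, limma adjusted p 0.739). Tet3 made up 69.95% ± 1.52 of the summed TPM of the 3 genes with DMSO and 71.3% ± 0.365 with TVA, and Tet2 27.9% ± 1.42 and 26.6% ± 0.494. The log2 ratio of Tet2 to Tet3 was -1.25 ± 0.10 with DMSO and -1.33 ± 0.033 with TVA, with overlap (difference -0.08, exact permutation p 0.30, adjusted 0.36). That difference was -0.25 with the GC correction and -0.14 without DMSO replicate 1 (exact permutation p 0.10 in each, unadjusted), and -0.049 without DMSO replicate 2.

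**Figure D2:**
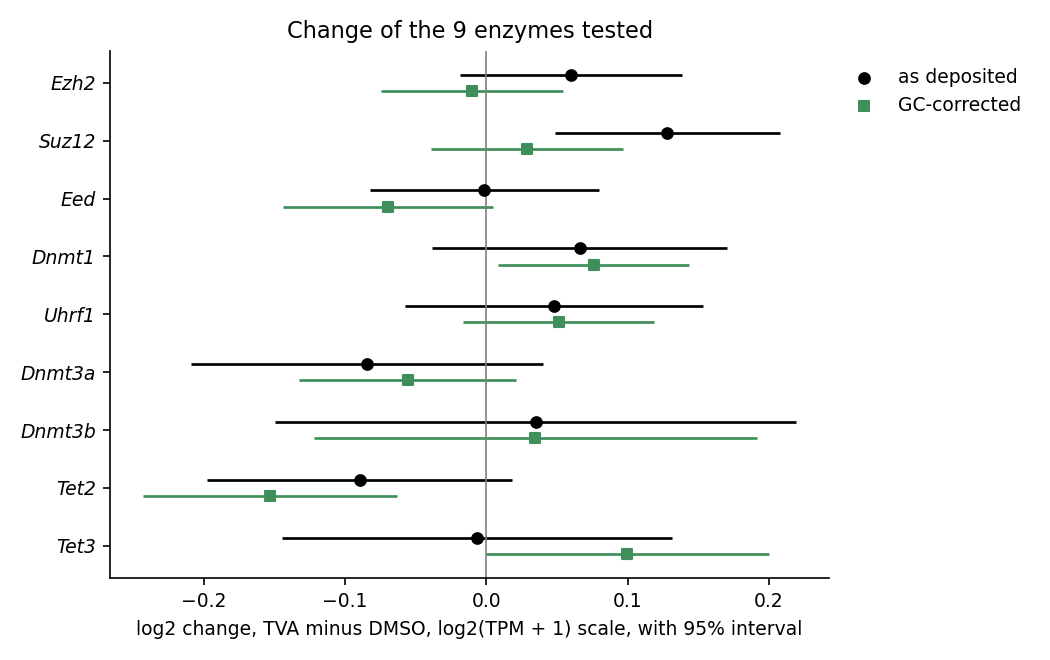
log2 change between TVA and DMSO on the log2(TPM + 1) scale for the 9 genes tested, as points with 95% intervals from limma, from the values as deposited (black) and after the GC correction (green). Without the correction the interval of Suz12 alone lies clear of 0, and with it those of Dnmt1 and Tet2 do, while none but Tet2 with the correction (adjusted p 0.0479) passes the adjusted threshold.

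The order of the levels was nearly the same in both groups. With DMSO, Uhrf1 at 167.2 TPM was followed by Ezh2 at 132.5, Dnmt1 at 121.4, Eed at 118.6 and Suz12 at 116.5 TPM, and then by Dnmt3a at 46.9, Tet3 at 24.5, Tet2 at 9.74, Dnmt3b at 7.78 and Tet1 at 0.767 TPM. Among Dnmt1, Eed and Suz12 the range of each overlapped the next with DMSO, although Eed lay above Suz12 within each of the 3 DMSO libraries. With TVA, Suz12 at 127.4 TPM moved next to Dnmt1 at 127.02 TPM, where their ranges overlapped, and Eed at 118.5 TPM lay below both. All other neighbours were separated in both groups.

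The 5 genes with GC-rich transcripts shared 1 feature among the DMSO libraries. Tet3, Dnmt3a, Dnmt3b, Uhrf1 and Dnmt1, with transcripts of 53.2% to 59.1% GC, were higher in DMSO replicate 1 than in DMSO replicate 3 by 0.19, 0.17, 0.16, 0.16 and 0.15 on the log2 scale. Ezh2, Suz12, Eed, Tet2 and Tet1, with 39.2% to 49.7% GC, differed between the same libraries by only -0.05, -0.05, -0.03, 0.02 and 0.02. Over all genes, the change with TVA followed GC content in the opposite direction (Spearman rho -0.40).

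**Figure D3:**
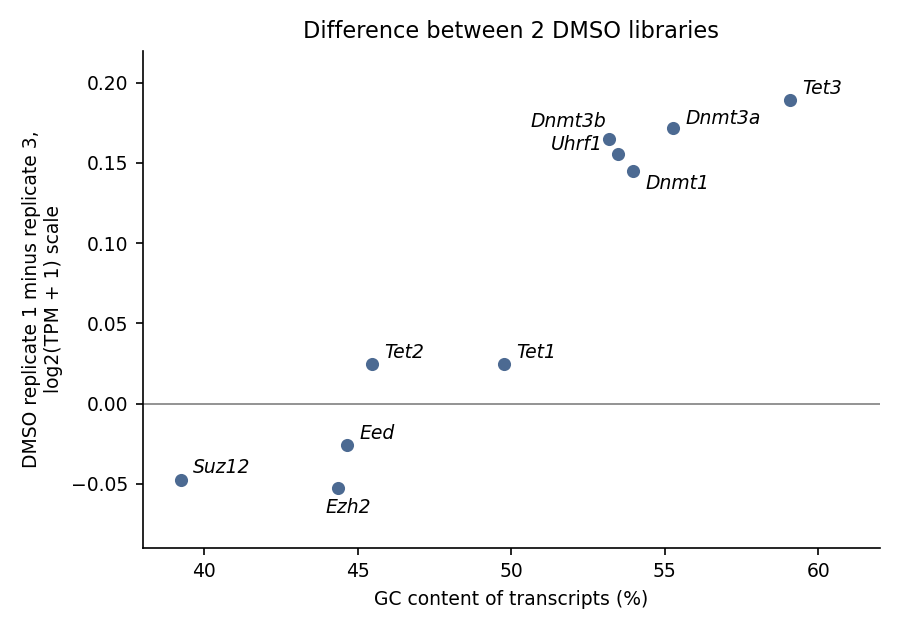
Difference between DMSO replicates 1 and 3 on the log2(TPM + 1) scale (vertical axis) against the GC content of the transcripts in percent (horizontal axis), 1 point for each of the 10 genes. The 5 genes with 53.2% GC or more lie at 0.15 to 0.19 and the other 5 between -0.05 and 0.02.

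Since Ezh2, Dnmt1 and Uhrf1 are genes of cycling cells, all 9 genes were set against 20 S phase genes that encode replication proteins. Of the S phase genes, 6 of 20 rose with TVA and 0 fell past the threshold (5.28% of all genes tested rose), their median log2 change was 0.09 (all genes 0.039; 0.062 for the list with the GC correction), and 13 of 20 did not overlap between groups (38.6% of all genes tested). Among the 6 were Pola1 (DNA polymerase alpha; log2 change 0.22, limma adjusted p 0.0172), Rrm2 (ribonucleotide reductase; 0.19, 0.0208), Prim1 (primase; 0.25, 0.0267) and Cdc45 (helicase cofactor; 0.22, 0.0321). All 4 of these calls were lost when any 1 TVA library was left out (adjusted p 0.0714 to 0.152), and those of Prim1 and Cdc45 also without DMSO replicate 3 (0.0583 and 0.0780). A replicate block ended all 4 as well (limma adjusted p 0.0530 to 0.0608). The count of 6 was 8 without DMSO replicate 2, 2 without DMSO replicate 3 or with median-of-ratios scaling, and 0 without any of the TVA libraries. The mean log2(TPM + 1) of the list was 6.69, 6.68 and 6.63 in the DMSO libraries and 6.74, 6.77 and 6.77 in the TVA libraries, a difference of 0.09 (exact permutation p 0.10).

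Relative to that mean in the same library, Dnmt3a lay at -1.01, -1.14 and -1.12 with DMSO and at -1.28, -1.23 and -1.27 with TVA, a difference of -0.18 on the log2 scale. Tet2 lay at -3.27, -3.23 and -3.23 with DMSO and at -3.43, -3.40 and -3.44 with TVA, also a difference of -0.18. Both genes were thus lower against the S phase genes in every TVA library, as were Eed (difference -0.09) and Tet3 (-0.10). These 4 had an exact permutation p of 0.10, the smallest possible, and 0.225 after adjustment over the 9 genes. The S phase mean itself was higher with TVA by 0.09, while the log2 changes of Eed (-0.0014) and Tet3 (-0.0063) alone were near 0. How many of all genes tested would separate on this scale was not computed. The GC correction left -0.12 for Dnmt3a, -0.21 for Tet2 and -0.13 for Eed and turned Tet3 to 0.039. Ezh2 (-0.03, exact permutation p 0.70), Suz12 (0.04, p 0.40), Dnmt1 (-0.02, p 0.70), Uhrf1 (-0.04, p 0.30) and Dnmt3b (-0.06, p 0.60) overlapped between the groups on this scale. With the GC correction the difference of Ezh2 was -0.07 (exact permutation p 0.10, unadjusted).

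Around the core, PRC2 has further subunits that steer it to its sites. Of 9 such genes tested, Ezh1 included, 1 rose and 0 fell past the threshold, and 6 had an unadjusted p under 0.05, with a median log2 change of 0.045. Over all genes tested these shares were 8.51% and 31.8%, and they are the background of the counts in the lists that follow too. The gene that rose was Mtf2, which recruits PRC2 to CpG islands, with 43.24, 44.99 and 46.2 TPM in the DMSO libraries and 50.11, 49.68 and 51.09 TPM in the TVA libraries. The groups did not overlap (log2 change 0.16, SE 0.040, limma adjusted p 0.0478). Its call held in 3 of 14 alternatives only, and did not survive the GC correction (0.117) or the omission of any library except DMSO replicate 2 (0.0541 to 0.191).

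Of 22 subunits of PRC1, the complex that ubiquitinates histone H2A, limma called 0 in either direction and 6 had an unadjusted p under 0.05, with a median log2 change of 0.033 (0.015 with the GC correction). Of 7 genes that remove the marks of both complexes or act with those that do, 0 were called and 1 had an unadjusted p under 0.05. Their median was 0.035 (-0.0031 with the GC correction). Of 10 cofactors of DNA methylation, 1 rose and 0 fell, the median was 0.10 (0.042 with the GC correction) and 5 had an unadjusted p under 0.05. The call was Setdb1, a histone H3 lysine 9 methyltransferase that silences retroelements together with DNA methylation. Setdb1 had 33.74, 34.6 and 32.78 TPM in the DMSO libraries and 38.28, 39.1 and 38.9 TPM in the TVA libraries, with every TVA library above every DMSO library (log2 change 0.20, SE 0.039, limma adjusted p 0.0276). Its call held with the GC correction (0.0233) and was lost with a replicate block (0.0656), without DMSO replicate 3 (0.0652) and without any TVA library (0.0929 to 0.144).

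Of 8 readers of methylated CpG and their relatives, 0 were called and 4 had an unadjusted p under 0.05. The median log2 change was 0.080 (0.095 with the GC correction), and with that correction 1 of the 8 was called higher and 1 lower. Of 13 cofactors of the TET enzymes and repair genes tested, 0 rose and 1 fell, the median was -0.0012 (0.012 with the GC correction) and 1 had an unadjusted p under 0.05. Cxxc5, a CXXC zinc finger protein, fell from 11.35, 10.49 and 11.3 TPM to 9.41, 9.5 and 8.8 TPM, without overlap (log2 change -0.23, SE 0.054, limma adjusted p 0.0429). Transcripts of Cxxc5 have 61.7% GC, the GC correction left a log2 change of -0.0064 (adjusted p 0.968), and leaving out any library except DMSO replicate 2 ended the call (0.0594 to 0.168). Of 12 genes of the cycle of the methyl donor S-adenosylmethionine and their relatives, 0 were called and 4 had an unadjusted p under 0.05. Their median was 0.042 (0.017 with the GC correction).

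**Figure D4:**
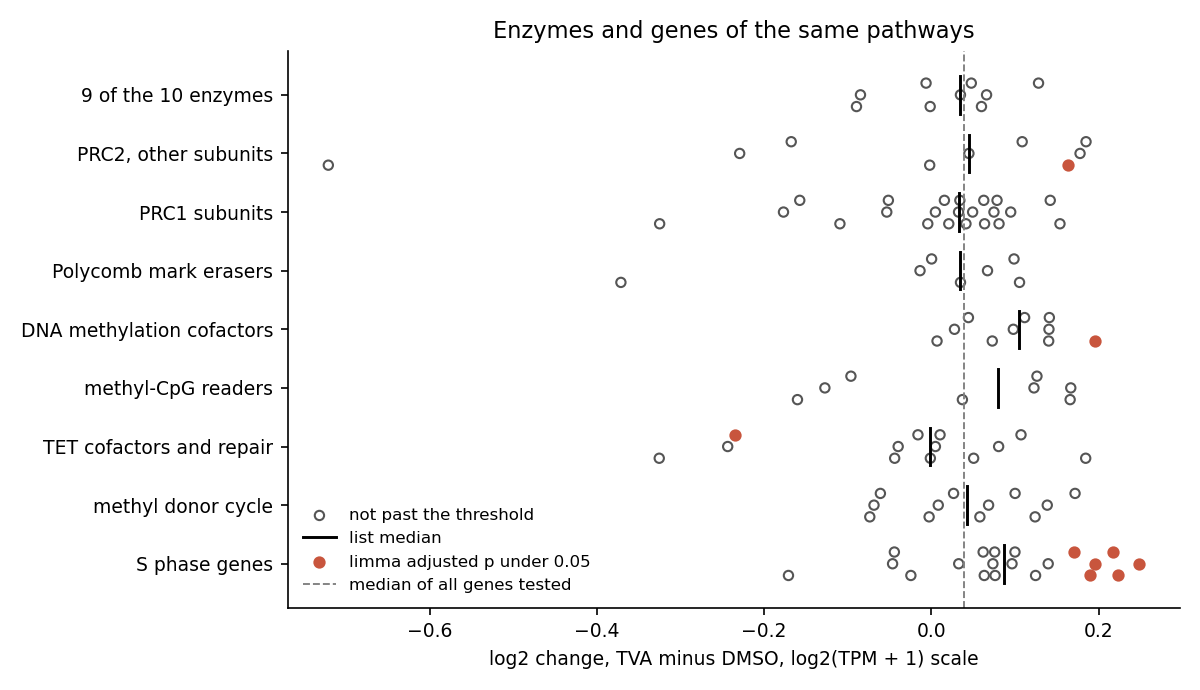
log2 change between TVA and DMSO on the log2(TPM + 1) scale for each tested gene of 9 lists, 1 point a gene; filled points have a limma adjusted p under 0.05, black bars are list medians and the dashed line is the median of all genes tested. The 9 enzymes lie between -0.09 and 0.13 with no filled point, and 6 of the 20 S phase genes are filled.

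Genes that these enzymes are known to keep silent stayed near 0. They were picked as silenced genes, so their low values cannot show whether silencing changed with TVA. Of 24 developmental and cell cycle inhibitor genes known as Polycomb targets, among them genes of the Hoxa and Hoxd clusters, all stayed under 1 TPM in every library, 7 were listed at 0 in all 6, and none was tested. The highest value was 0.99 TPM, of Cdkn2a in DMSO replicate 2 (named for its value). Of 15 germline genes that DNA methylation silences in somatic cells, all stayed under 1 TPM and 7 were listed at 0 in every library. The highest value there was 0.97 TPM, of Tuba3a in the same library. Sequencing depth is unknown, so no limit can be set on the values listed at 0.

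The genes whose profiles over the 6 libraries were most like those of each enzyme were sought among the 8934 genes whose mean reached 5 TPM, by the root-mean-square difference of centred log2(TPM + 1) values. For Ezh2 they were Ywhah, Gxylt1 and Ube2v2 (0.0065 to 0.0096), for Suz12 Tra2b, Srsf3 and Ttc9c (0.0090 to 0.0096), and for Eed Ccdc115, Ptgr2 and Aen (0.012 in each). For Dnmt1 they were Ccne1, Coq6 and Pacs1 (0.0063 to 0.0084), and for Uhrf1 Blcap, Ubqln4 and Aes (0.0073 to 0.011). For Dnmt3a they included Atp10a and Plekhb2 (0.0079 and 0.011), and for Dnmt3b Gpatch1, Patz1 and Ptdss2 (0.019 to 0.021). For Tet2 they were Pogk, Tespa1 and N4bp1 (0.010 to 0.014), and for Tet3 Tmco4, Ankrd52 and Unkl (0.012 to 0.014). With 6 libraries and changes this small, such likeness is a description of these libraries only.

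Exons of 5 of the genes overlap a gene on the opposite strand in GENCODE vM21: Ezh2 by 174 bases, Suz12 by 178, Eed by 261, Dnmt3a by 133 and Tet2 by 43. Whether strand was used in quantification is not given in the sources used here, so reads of these stretches could belong to either gene. The overlapping genes E230029C05Rik (next to Eed) and Dnmt3aos reached at most 0.32 and 0.10 TPM.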

How the data were processed

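The authors deposited 1 table of TPM per gene symbol. The kit named in the labels is the SMARTER mRNA-Seq kit, and the submitters' processing notes name STAR, RSEM and mm10 without versions. TPM keeps no depth, so the depth of each library is unknown and no counting interval is given. Columns were assigned by the names in the sample descriptions. The groups were compared on the log2(TPM + 1) scale with limma 3.58.1 (R 4.3.3, variance trend, two-sided, Benjamini-Hochberg adjustment over the 10866 genes with at least 1 TPM in at least 3 libraries, threshold 0.05). Ratios of genes within a library were compared with exact permutation tests.

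The 10 genes and all gene and marker lists were chosen with earlier results of these data known. The text names the 10 genes, Ezh1, at most 4 genes per list past the threshold and the 3 most similar profiles per gene (mean of at least 5 TPM); 1 of these and 1 marker list are not reported here. Alternatives were a pseudocount of 0.1, all genes above 0 TPM, genes averaging 10 TPM or more, median-of-ratios scaling, quantile normalization, no variance trend, a replicate block, each library left out, and a GC correction. For the correction, deviations of genes from their means were smoothed against the GC content of GENCODE vM21 transcripts (known for 97.4% of genes tested) within each library by loess with a span of 0.5, and the curve was subtracted. Positions and overlaps are from GENCODE vM21 (GRCm38) and promoter windows from RefSeq (GRCm38.p6). Figures were drawn with matplotlib 3.10.9 in Python 3.11.15.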

Additional observations from a re-analysis of the deposited data

How the results depend on the processing

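Of the 124 alternative values of the 9 genes, 114 kept their direction and side of the threshold, 2 passed it (Suz12 without DMSO replicate 2 and Tet2 with the GC correction) and 8 turned sign. The number of these genes called higher was 0 to 1 when a library was left out, and the number called lower was 0 in each omission and 1 with the GC correction. With the GC correction Ezh2 turned to -0.010 and Tet3 to 0.10. Tet3 was also positive without DMSO replicate 1 (0.051) or TVA replicate 1 (0.022), in a range of -0.044 to 0.051 over omissions. Eed was positive without DMSO replicate 2 (0.0047), DMSO replicate 3 (0.0021) or TVA replicate 2 (0.016; range -0.013 to 0.016), and Dnmt3b negative without DMSO replicate 2 (-0.036; range -0.036 to 0.11). Relative to the S phase genes, Suz12 (-0.032), Dnmt1 (0.015) and Tet3 (0.039) turned with the GC correction, Ezh2 without DMSO replicate 3 (range -0.052 to 0.0050 over omissions) and Dnmt3b without DMSO replicate 1 (-0.13 to 0.0098). Of the 101 genes in the pathway lists, 8 were called higher and 1 lower. Those numbers were 4 and 0 with all genes above 0 TPM, 3 and 3 with median-of-ratios scaling, 5 and 2 with quantile normalization, and 9 and 2 with the GC correction. Without the variance trend 5 were higher. They ranged from 0 to 14 higher and from 0 to 6 lower when a library was left out, with 14 and 6 without DMSO replicate 2, 2 higher without DMSO replicate 3, and 0 and 0 without any TVA library. The cause was not tested. The median log2 change of all genes was 0.039, and 0.0043 with median-of-ratios scaling.

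Deviations of libraries with the same replicate number correlated at 0.157, 0.0348 and -0.0767, so the numbers were not taken to pair the libraries. With a replicate block 0 of the 9 enzymes were called in either direction, as without it, and 0 of the pathway genes were higher and 0 lower. Ratios within a library are the same with and without the block, for example -0.15 for Dnmt3a to Dnmt1.

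With 3 libraries a group, the smallest exact p is 0.10.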

Other observations

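Kdm6b, a demethylase of the Ezh2 mark, was not past the threshold and was chosen after its values were seen. Its change was the largest among the 7 genes that remove Polycomb marks or act with those that do. It had 35.67, 25.96 and 27.4 TPM in the DMSO libraries and 22.84, 22.52 and 22.13 TPM in the TVA libraries. Every TVA library lay below every DMSO library, and DMSO replicate 1 stood above the other 5. The log2 change was -0.37 (SE 0.11, limma adjusted p 0.0652). The adjusted p was under the threshold in 5 of 14 alternatives, with 0.0349 after the GC correction, 0.0484 with median-of-ratios scaling, 0.0439 with quantile normalization, 0.0234 without DMSO replicate 1 (where the log2 change was -0.24) and 0.0181 without DMSO replicate 2, and it was 0.154 to 0.197 without a TVA library. Kdm6a, its X-linked paralog, had 24.04, 25.49 and 25.08 TPM in the DMSO libraries and 25.61, 27.14 and 27.77 TPM in the TVA libraries (log2 change 0.11, limma adjusted p 0.168). The groups did not overlap for either gene, and the difference between the paralogs was not tested.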
